A study of Mus musculus with 6 samples.

Results

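Keratinocytes, the cells that build the epidermis, take and change their identity under a small set of transcription factors. Basal cells depend on p63, the product of Trp63, and divide on the basement membrane. As cells move up, factors of the OVO, C/EBP, GATA, Krüppel-like and grainyhead families switch off the basal programme and switch on the genes of the spinous and granular layers, which end as the cornified barrier. The 9 genes described here are such factors, taken as a fixed list of names: Trp63 for basal identity, Ovol1, Gata3 and Cebpb for commitment, Klf4, Grhl1 and Grhl3 for late differentiation and barrier formation, and the homeobox genes Hopx and Barx2. All 9 were found in the count table of 55487 genes, each as 1 row, and all 9 passed the filter on low counts that left 18259 genes to test.

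The libraries came from whole dorsal skin of mice on day 2, with 3 libraries from control skin and 3 from skin given DPCP (diphenylcyclopropenone, a contact sensitizer used to provoke an allergic skin reaction). Genotype, strain, age, sex and the treatment of control skin are not given in the labels, nor is it stated that each library is from its own animal. All p-values hence rest on library-to-library spread, some of which may be technical. The question asked of the 9 genes is how their expression in DPCP skin compared with that in control skin at this time.

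Library totals ran from 28346992 to 38846787 counts, and levels are given in CPM, the count of a gene relative to the library total, scaled by TMM factors that level library composition. Keratinocyte markers (Krt5, Krt14, Krt1, Krt10, Epcam, Cdh1, Dsg3 and Sfn) together reached 18820 to 24220 CPM in control and 28534 to 33036 CPM in DPCP libraries, so epidermal RNA was present in every library. They did not move as a group: all were tested, and 3 were higher in DPCP skin, 3 lower and 2 not called by the test given below. Within the sum, Krt14 rose from a mean of 4772 to 17412 CPM and Krt10 fell from 5914 to 1019 CPM. Skeletal muscle markers also took a large share, at 10887 to 13463 CPM in control and 2914 to 5858 CPM in DPCP libraries. Control replicate 3 stood apart for the genes of interest: each of the 9 had its highest control value there, whereas 35.8% of all tested genes did. That library also had the highest sum of keratinocyte markers among the controls (24220 CPM against 19155 and 18820 CPM) and the lowest sum of macrophage markers (1580 CPM against 2641 and 2676 CPM). The part of these differences in the results below was not tested beyond the values given without that library.

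In DPCP skin 3 of the 9 factors were higher (Cebpb, Hopx and Ovol1), 2 were lower (Gata3 and Grhl1), and 4 were not called (Trp63, Klf4, Grhl3 and Barx2), by edgeR's quasi-likelihood test at a Benjamini-Hochberg adjusted p under 0.05 over all tested genes. Of all tested genes 46.1% were called, 22.8% higher and 23.3% lower, so 5 calls among 9 genes is near the background. Among genes at least as abundant as the least abundant of the 9, the share called was 55.9%. Control and DPCP libraries did not overlap in CPM for the 5 called factors and overlapped for the other 4, while 58.1% of all tested genes had groups that did not overlap. The median log2 fold change of the 9 was −0.02 against −0.01 over all tested genes, and the median of its absolute size 0.47 against 0.41. The changes were moderate: the 9 log2 fold changes lay between −1.05 and 0.80, and 17.3% of tested genes had a larger absolute value than any of them.

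**Figure D1:**
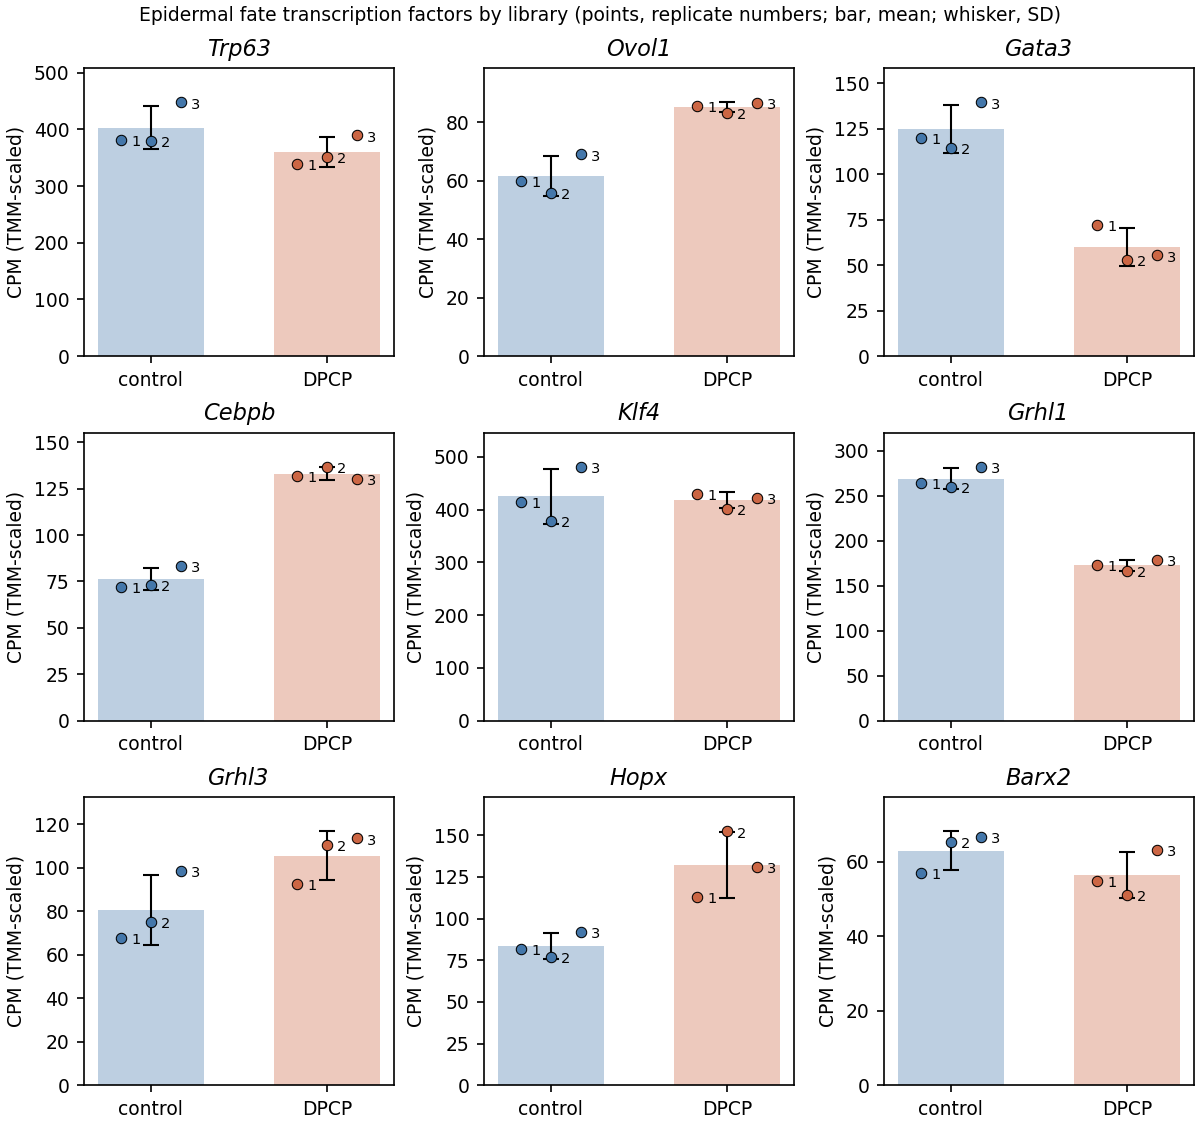
Level of each of the 9 factors in CPM (y axis, TMM-scaled, starting at 0) in 3 control and 3 DPCP libraries; points are libraries with their replicate numbers, bars the mean and whiskers the SD. The groups are apart for Ovol1, Gata3, Cebpb, Grhl1 and Hopx and overlap for Trp63, Klf4, Grhl3 and Barx2, and the third control library is the highest control for every gene.

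Trp63 (ENSMUSG00000022510, GRCm38 chromosome 16, 25683763 to 25892102, plus strand) encodes p63, without which no stratified epidermis forms. It stood at 382, 380.0 and 448 CPM in control replicates 1 to 3 and at 339, 352 and 389.6 CPM in DPCP replicates 1 to 3. The highest DPCP library lay above the lowest controls, so the groups overlapped. The log2 fold change was −0.16 ± 0.10 (SE), with an edgeR adjusted p of 0.225. Without control replicate 3 it was −0.08 (edgeR adjusted p = 0.578). The gene is read from separate start sites that give isoforms with and without the N-terminal activation domain, and counts per gene do not separate them. Neither of its relatives passed the threshold: Trp53, the tumour suppressor gene, was at 61.4 ± 6.42 and 75.8 ± 11.9 CPM (SD, n = 3), and Trp73 at 11.1 ± 3.22 and 16.0 ± 2.93 CPM (SD, n = 3) in control and DPCP skin. Trp73 had a log2 fold change of 0.52 ± 0.22 (SE) and passed the threshold without a count filter (edgeR adjusted p = 0.0262), with DESeq2 (adjusted p = 0.0449), without control replicate 3 (0.78, edgeR adjusted p = 0.0172) and without DPCP replicate 2 (0.67, edgeR adjusted p = 0.0448).

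Genes of the basal layer, where p63 acts, were called in both directions, as were all tested genes (22.8% higher and 23.3% lower). Of 17 basal layer genes, 8 were higher, 5 lower and 4 not called, with a median log2 fold change of 0.34. The basal keratin gene Krt14 rose from 4772 ± 395 to 17412 ± 1232 CPM (SD, n = 3). Itga3, an integrin subunit that binds the basement membrane, rose by a log2 fold change of 1.27 ± 0.16 (SE). Krt15, a keratin of resting basal cells and of hair follicle stem cells, fell from 2223 ± 98.8 to 650.2 ± 141 CPM (SD, n = 3).

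Among the commitment factors, Ovol1 and Cebpb rose and Gata3 fell. Ovol1 (ENSMUSG00000024922, chromosome 19, 5549136 to 5560646, minus strand), a zinc finger repressor that takes keratinocytes out of the cell cycle, stood at 59.95, 55.8 and 69.0 CPM in control and at 85.5, 83.1 and 86.5 CPM in DPCP replicates 1 to 3. All DPCP libraries lay above all controls and close to each other. The log2 fold change was 0.47 ± 0.10 (SE), a 1.38-fold difference, at an edgeR adjusted p of 0.00438. Exons of Ovol1 share bases with Gm31166 on the other strand, which had 38, 56 and 62 counts in the control group and 24, 29 and 14 with DPCP, against 1675 to 3041 counts of Ovol1. The library kit marks strand but counting used no strand option, so antisense reads elsewhere within Ovol1 cannot be told apart from its own. Reads in bases shared by genes were by default in neither count, so the counts of a partner gene do not measure how many were lost. Ovol2, its relative of immature epithelium, was scarce at 3.10, 3.56 and 3.04 CPM in control and 1.47, 2.05 and 2.93 CPM in DPCP libraries (log2 fold change −0.59 ± 0.26, SE, edgeR adjusted p = 0.096). It was called lower without DPCP replicate 3 (−0.87, edgeR adjusted p = 0.0265).

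Cebpb (ENSMUSG00000056501, chromosome 2, 167688915 to 167690418, plus strand) encodes C/EBPβ, which acts in committed keratinocytes and also in myeloid cells and in acute-phase responses. It had the largest increase of the 9, from 72.2, 73.2 and 83.2 CPM in control to 132, 137 and 130.2 CPM in DPCP replicates 1 to 3. The lowest DPCP library stood far above the highest control, and the DPCP libraries differed little. The log2 fold change was 0.80 ± 0.09 (SE), a 1.74-fold difference, at an edgeR adjusted p of 0.000179. Its exon lies on the strand opposite to exons of Tmem189, which had 1549 to 1990 counts in the control group, 1355 to 1894 with DPCP, and was not called (edgeR adjusted p = 0.216). No other C/EBP gene tested was called higher. Cebpa, the C/EBP of quiescent differentiated cells, was at 333 ± 45.6 and 289 ± 33.8 CPM, and Cebpd, an inflammatory C/EBP, at 47.6 ± 1.47 and 58.3 ± 14.6 CPM (SD, n = 3), neither called (edgeR adjusted p = 0.218 and 0.164). Cebpg fell by 0.29 on the log2 scale (edgeR adjusted p = 0.0425), but this call was lost without a count filter, with DESeq2, and when control replicate 1, 2 or 3 or DPCP replicate 2 or 3 was left out (adjusted p of 0.0553 to 0.136). Cebpe, of granulocytes, was at 0.417 to 1.20 CPM over the 6 libraries.

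Markers of myeloid cells were called higher in part. Of 8 macrophage markers 4 were higher, 4 not called and none lower, at overlapping summed levels of 1580 to 2676 CPM in control and 2526 to 4297 CPM in DPCP libraries. Of the 8 neutrophil markers, 6 could be tested and all 6 were higher, with sums of 41.3 to 49.7 and 492 to 1292 CPM. The remaining 2, the defining marker Ly6g and Mpo, had too few counts (Ly6g at 0, 0 and 0.030 CPM in control and 0.115, 1.28 and 0.290 CPM in DPCP libraries). S100a8 and S100a9 in that list are also made by stressed keratinocytes. The part of these cells in the Cebpb result was not tested. In whole skin, more or fewer cells of a type and more or less RNA per cell cannot be told apart.

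Gata3 (ENSMUSG00000015619, chromosome 2, 9857078 to 9890034, minus strand) acts in the epidermal barrier, in the inner root sheath of the hair follicle and in T cells and innate lymphoid cells. It had the largest change of the 9, from 120.1, 115 and 140 CPM in control to 72.1, 52.9 and 55.4 CPM in DPCP replicates 1 to 3. Every DPCP library lay below every control, with DPCP replicate 1 nearest to them. On the log2 scale the change was −1.05 ± 0.13 (SE), to 0.48 times the control level, with edgeR giving an adjusted p of 0.00045. Without DPCP replicate 1 it was −1.20. Genes sharing exon bases with Gata3 had few counts outside the shared bases, at most 22 in any library for 9230102O04Rik and at most 3 for Gm13256. Gata2 stood at 6.45 ± 0.82 and 7.39 ± 0.29 CPM and was not called (edgeR adjusted p = 0.302). Gata6, a factor of the sebaceous duct and upper follicle, was at 11.98 ± 1.91 and 8.09 ± 2.18 CPM (SD, n = 3). Its log2 fold change of −0.57 ± 0.21 (SE) missed the threshold (edgeR adjusted p = 0.0538) and passed it without a count filter (edgeR adjusted p = 0.0232), with DESeq2 (adjusted p = 0.0347), with upper-quartile factors (edgeR adjusted p = 0.0497), with library totals alone (0.0439), without control replicate 3 (0.0403) and without DPCP replicate 1 (0.00883).

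Lymphocyte markers moved with Gata3 in part. Of 9 T cell markers 4 were lower (Cd3e, Cd3g, Cd3d and Trbc2), 1 was higher (Cd4) and 4 were not called, and the list summed to 81.8 to 97.1 CPM in control and 47.0 to 61.8 CPM in DPCP libraries. Markers of type 2 innate lymphoid cells were mixed, with 2 of the 6 tested higher (Areg and Il1rl1, both also made by other cells), 2 lower (Rora and Il17rb), 2 not called and Il5 too scarce to test. Their sum was 287 to 352 CPM in control and 179 to 198 CPM in DPCP libraries, without overlap. Summed per exon length, with each library scaled to the same total, it was 74.6 to 86.1 in control and 93.3 to 99.1 in DPCP libraries. That fixed total limits the second scale for changes between groups. The 2 sums point in opposite directions, so no direction is read from this list. Of 7 inner root sheath genes only 2 could be tested, with Tchh higher and Krt28 lower, and Krt72 was at 0 throughout. All 7 together reached 15.8 to 19.3 CPM in control and 18.8 to 19.5 CPM in DPCP libraries. The part of these cells in the Gata3 result was not tested.

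Of the late differentiation factors, Klf4 showed no call, Grhl1 fell and Grhl3 was higher in value without passing the threshold. Klf4 (ENSMUSG00000003032, chromosome 4, 55527143 to 55532466, minus strand), needed in mice for a tight skin barrier, stood at 414, 379 and 481 CPM in control and at 430.0, 401 and 422 CPM in DPCP replicates 1 to 3. The DPCP values lay inside the range of the controls. The log2 fold change was −0.02 ± 0.11 (SE, edgeR adjusted p = 0.870), and its sign turned without control replicate 3 (0.07) and without DPCP replicate 2 (0.0034). Of the 6 other Krüppel-like genes tested, Klf2, Klf3 and Klf5 were not called, with log2 fold changes of −0.09, −0.12 and 0.08. Klf9, a target of glucocorticoid signalling, fell from 68.2, 76.9 and 89.2 CPM to 33.3, 37.2 and 31.7 CPM. Klf10, induced by TGF-beta, rose from 62.5, 75.7 and 66.3 CPM to 103, 125 and 137 CPM. Their log2 fold changes were −1.20 ± 0.12 and 0.84 ± 0.12 (SE). Klf6 fell by 0.36 on the log2 scale (edgeR adjusted p = 0.028), a call lost without control replicate 1 or 3 or DPCP replicate 1 or 3 (edgeR adjusted p of 0.0632 to 0.101).

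Grhl1 (ENSMUSG00000020656, chromosome 12, 24572283 to 24617391, plus strand) and Grhl3 (ENSMUSG00000037188, chromosome 4, 135541888 to 135573630, minus strand) encode grainyhead-like proteins that bind the same kind of DNA site. Grhl1 is known for the control of desmosomal cadherin genes and Grhl3 for barrier formation and wound closure. The start regions of the pair are shown because Grhl1 fell while Grhl3 was higher in value without a call. They are from RefSeq on GRCm38.p6, 240 bases each, ending 11 bases before the annotated start, for Grhl1 at chr12:24572037-24572276 on the plus strand and for Grhl3 at chr4:135573643-135573882 on the minus strand, with each match to CACCC, on either strand, in capitals. CACCC is a core of sites bound by Krüppel-like factors.
Grhl1: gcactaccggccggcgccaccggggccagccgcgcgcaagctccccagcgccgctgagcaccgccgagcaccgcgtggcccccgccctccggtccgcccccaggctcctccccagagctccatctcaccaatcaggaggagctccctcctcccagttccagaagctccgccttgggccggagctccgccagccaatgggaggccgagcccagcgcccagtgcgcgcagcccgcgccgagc
Grhl3: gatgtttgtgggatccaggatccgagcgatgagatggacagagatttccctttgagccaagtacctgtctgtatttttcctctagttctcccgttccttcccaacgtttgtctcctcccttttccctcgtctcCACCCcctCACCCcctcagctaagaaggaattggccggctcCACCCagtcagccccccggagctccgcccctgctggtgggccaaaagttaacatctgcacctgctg

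The Grhl1 window printed was 75.8% G and C and held no CACCC, and the Grhl3 window was 56.3% G and C and held 3, which began 117, 109 and 76 bases before the start. RefSeq gives Grhl1 a further start region, which was 52.5% G and C and held 2 CACCC matches, 81 and 29 bases before that start, so the genes do not differ in having the motif near a start. CACCC was present in 50.6% of the 32851 RefSeq start regions of this length, so its presence sets neither gene apart. Motifs for grainyhead (AACCNGTT, in 1.74% of start regions), AP-1 (TGANTCA, in 6.58%) and C/EBP (TTGCNNAA, in 9.29%), searched on both strands, had no match in any of these windows. None of these 3 matched in the start regions of Cebpb, Gata3, Klf4 or Hopx either, the other 4 of the 6 factors with a RefSeq entry. Hopx had a further start region as well, likewise without a match to these 3.

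Grhl1 stood at 265, 259.6 and 282 CPM in control and at 173, 166 and 179 CPM in DPCP replicates 1 to 3. The groups were far apart relative to their spread. Grhl1 fell by a log2 fold change of −0.64 ± 0.08 (SE), or 0.64 times the control level, at an edgeR adjusted p of 0.000454. Grhl3 stood at 67.7, 75.0 and 98.7 CPM in control and at 92.6, 110.4 and 114 CPM in DPCP replicates 1 to 3. Control replicate 3 lay above DPCP replicate 1, the only overlap between its groups. Its log2 fold change was 0.39 ± 0.15 (SE) at an edgeR adjusted p of 0.0574. Grhl3 was called higher without control replicate 3 (0.56, edgeR adjusted p = 0.00921), without DPCP replicate 1 (0.48, edgeR adjusted p = 0.0332), without a count filter (0.40, edgeR adjusted p = 0.0159) and with DESeq2 (0.41, adjusted p = 0.0338). Grhl2, the family member of simple and embryonic epithelia, was at 41.3, 37.8 and 43.8 CPM in control and 43.1, 42.6 and 45.9 CPM in DPCP libraries and was not called (edgeR adjusted p = 0.392).

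**Figure D2:**
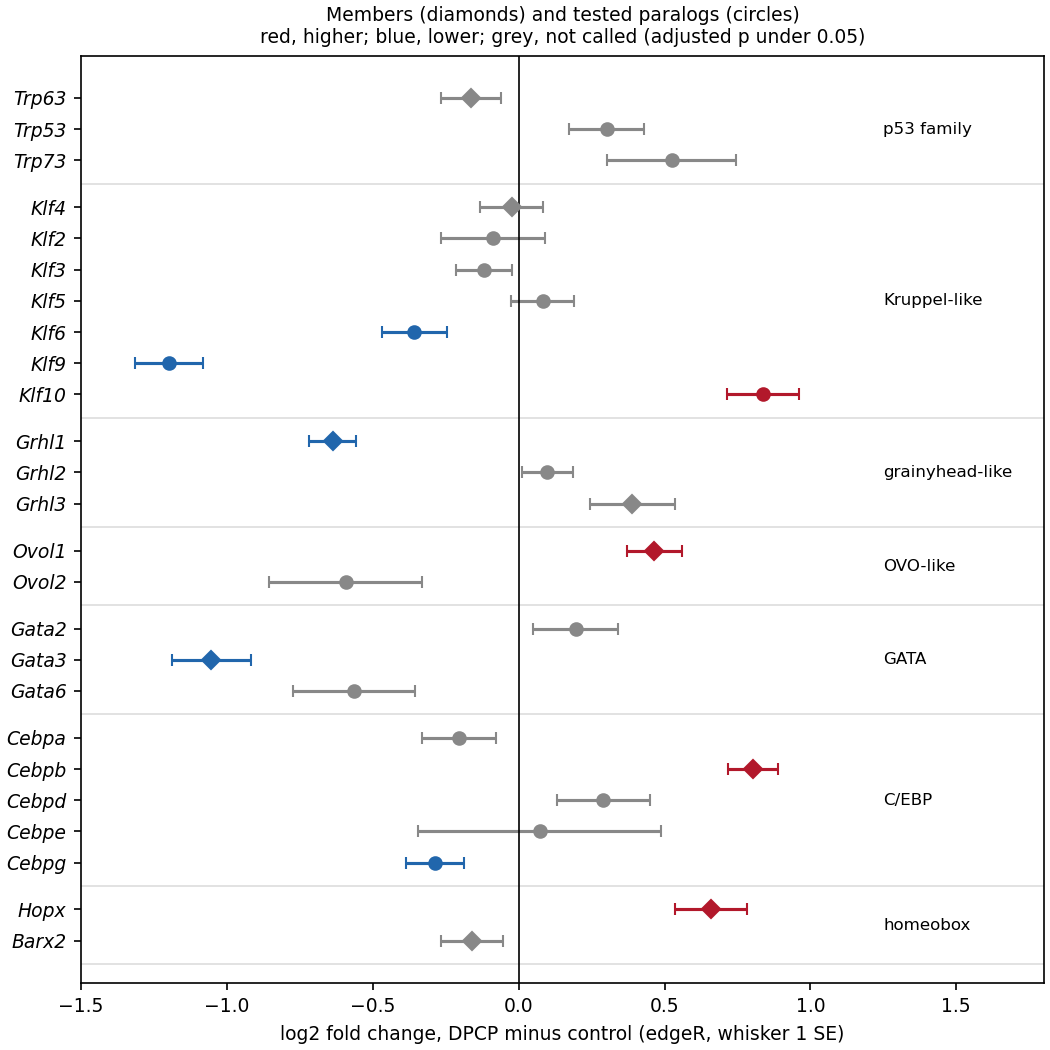
Log2 fold change of DPCP minus control (x axis, whisker 1 SE, edgeR) for the 9 factors (diamonds) and their tested paralogs (circles), grouped by family; red is called higher, blue called lower and grey not called at an adjusted p under 0.05. Within the C/EBP genes Cebpb lies at 0.80 and Cebpg at −0.29, and within the grainyhead-like genes Grhl1 lies at −0.64 and Grhl3 at 0.39.

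Of the 2 homeobox genes, Hopx rose and Barx2 was not called. Hopx (ENSMUSG00000059325, chromosome 5, 77086988 to 77115121, minus strand) encodes a small homeodomain protein that does not bind DNA itself and marks differentiating keratinocytes and hair follicle stem cells. It stood at 81.7, 77.1 and 91.9 CPM in control and at 113, 152 and 131 CPM in DPCP replicates 1 to 3. All DPCP libraries lay above all controls, with a wider spread among the DPCP libraries. The log2 fold change was 0.66 ± 0.12 (SE), a 1.58-fold difference, at an edgeR adjusted p of 0.00279. The antisense gene Hopxos, which shares exon bases with it, had 34 to 40 counts in the control group, 35 to 47 with DPCP, and was not called (edgeR adjusted p = 0.909). Of 8 hair follicle stem cell markers, 4 were lower (Krt15, Fgf18, Cd34 and Lhx2), 4 were not called and none was higher. The part of these cells in the Hopx result was not tested.

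Barx2 (ENSMUSG00000032033, chromosome 9, 31846044 to 31913462, minus strand), a homeobox factor of skin, hair follicle and muscle, stood at 57.0, 65.3 and 66.6 CPM in control and at 54.9, 51.1 and 63.1 CPM in DPCP replicates 1 to 3. The groups overlapped, and the log2 fold change was −0.16 ± 0.11 (SE, edgeR adjusted p = 0.247). All 8 skeletal muscle markers were lower in DPCP skin, by log2 fold changes of −1.83 to −0.78. The share of Barx2 RNA from muscle was not tested.

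Levels per exon length, in TPM (scaled to the same total in each library), ordered the factors differently in the 2 groups. In control skin Klf4 was the most abundant at 404 ± 39.2 TPM (SD, n = 3), above the next gene in every library. Hopx (160 ± 10.6 TPM), Cebpb (147 ± 9.45 TPM), Grhl1 (141 ± 3.53 TPM) and Trp63 (139 ± 10.7 TPM) followed, and neighbours among these 4 overlapped between libraries. Barx2 (92.9 ± 8.50 TPM), Gata3 (90.9 ± 7.47 TPM) and Grhl3 (83.6 ± 15.5 TPM) formed the next overlapping run, and Ovol1 was lowest at 51.1 ± 4.36 TPM. In DPCP skin Klf4 remained first at 345 ± 46.7 TPM, and Cebpb (222 ± 17.6 TPM) and Hopx (217 ± 16.6 TPM) followed, overlapping each other and apart from Trp63 (108 ± 15.3 TPM). Grhl3 (94.7 ± 11.7 TPM) now stood above Grhl1 (78.4 ± 10.4 TPM) without overlap, and Gata3 was last at 38.2 ± 9.44 TPM, below Ovol1 (61.3 ± 7.39 TPM). TPM shares a fixed total among all genes, so these values serve for the order within a group and not for changes between groups. Reads in exon bases shared with other genes were not counted. The TPM of Ovol1, Gata3, Cebpb and Hopx, which share such bases, may therefore be too low, and their ranks with it.

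Ratios of 2 genes within 1 library do not depend on the scaling of libraries, and 7 pairs were compared per exon length. For all 7 the control and DPCP libraries did not overlap, and each exact two-sided permutation test gave p = 0.10, the smallest that 3 against 3 libraries allow (adjusted over the 7 pairs, 0.10). None can therefore pass 0.05 in this design. Among single tested genes, 58.1% had groups that did not overlap in CPM, and no such share was computed for ratios. The Grhl3 to Grhl1 ratio was 0.508, 0.574 and 0.695 in control and 1.06, 1.32 and 1.26 in DPCP replicates 1 to 3. Per exon base, Grhl1 was the more abundant of the pair in every control library and Grhl3 in every DPCP library. That change of order depends on the exon lengths used, 5539 bases for Grhl1 and 2789 for Grhl3. In CPM Grhl1 stood above Grhl3 in all 6 libraries. The mean log2 ratio differed by 1.04, a 2.06-fold difference, and by 0.94 to 1.16 when single libraries were left out. The Cebpb to Cebpa ratio rose from 0.395, 0.435 and 0.380 to 0.707, 0.910 and 0.828, a 2.01-fold difference. Cebpa stayed above Cebpb in all 6 libraries, per exon base and in CPM. Both genes share exon bases with a gene on the other strand, where reads were not counted. The ratio per exon base, and hence this order, depends on how many such reads were lost.

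The Ovol1 to Ovol2 ratio was 11.7, 9.44 and 13.7 in control and 34.9, 24.4 and 17.8 in DPCP libraries, and rests on 51 to 107 counts of Ovol2 per library. The Ovol1 to Trp63 ratio was 0.378, 0.353 and 0.371 in control and 0.607, 0.569 and 0.534 in DPCP libraries, a 1.55-fold difference with little spread. The Grhl1 to Grhl2 ratio was 9.97, 10.67 and 10.01 in control and 6.24, 6.07 and 6.06 in DPCP libraries. Control replicate 3, high for each gene alone, lay with the other controls in this ratio. The Klf4 to Klf5 ratio was the steadiest, with SDs of 0.024 and 0.010 on the log2 scale, and differed by −0.11 between the groups (6.64, 6.84 and 6.64 against 6.20, 6.27 and 6.20). The Klf4 to Trp63 ratio differed by 0.14 on the log2 scale, from 2.98, 2.74 and 2.96 to 3.49, 3.14 and 2.98, with the first control and the third DPCP library both at 2.98.

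**Figure D3:**
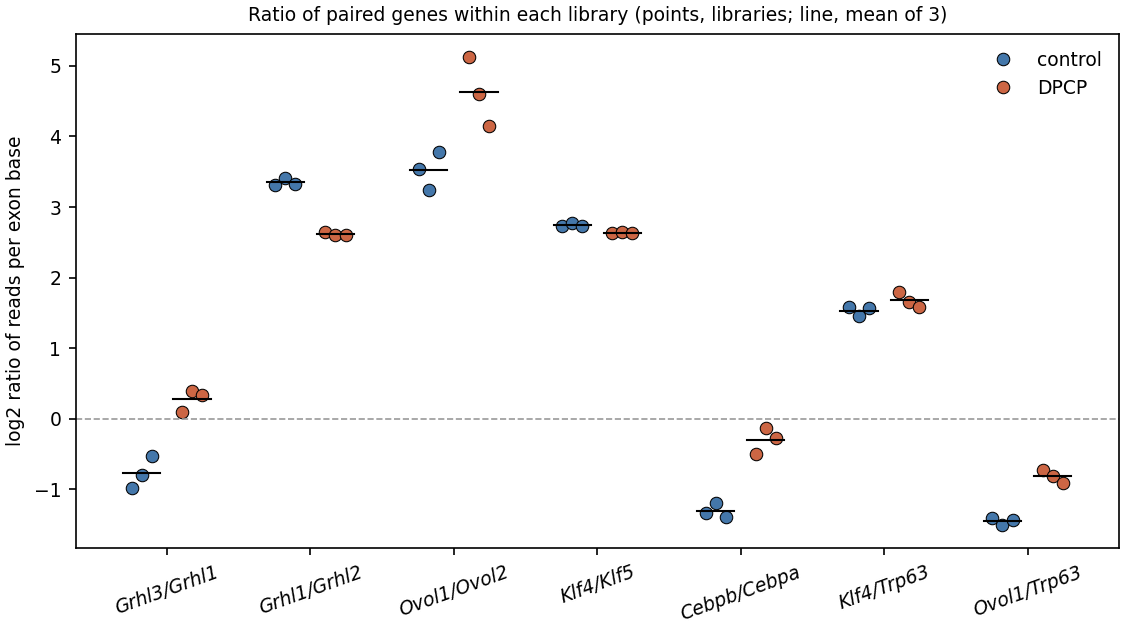
Log2 ratio of reads per exon base (y axis) for 7 gene pairs within each of 3 control and 3 DPCP libraries; points are libraries, lines the means, and the dashed line marks equal levels. The Grhl3 to Grhl1 points pass from below to above the dashed line, and the Klf4 to Klf5 points differ by 0.11 between group means.

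Other transcriptional regulators of keratinocytes were also called in both directions. Of 33 such genes, 8 were higher, 7 lower and 18 not called, with a median log2 fold change of −0.03. That is near the share over all tested genes, of which 22.8% were called higher and 23.3% lower. Elf3, an ETS factor of differentiating epithelium, had the largest change in this list, from 0.544, 1.37 and 0.596 CPM in control to 10.6, 9.54 and 12.1 CPM in DPCP replicates 1 to 3 (log2 fold change 3.69 ± 0.32, SE). The control level rests on 16 to 41 counts per library, and a gene on the other strand shares its exons. Nfe2l2, which encodes the oxidative stress factor NRF2, rose from 95.2 ± 6.98 to 207 ± 18.7 CPM and Runx1 from 15.2 ± 0.371 to 36.5 ± 5.76 CPM (SD, n = 3). Satb1, a chromatin organizer that p63 controls in epidermis, fell from 29.2, 30.3 and 34.3 CPM to 12.3, 11.7 and 12.01 CPM (log2 fold change −1.38 ± 0.10, SE).

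Among 49 tested paralogs and regulators, the gene whose log2 CPM profile over the 6 libraries lay nearest was found for the factors named here by the root mean square distance of the centred profiles. Gata3 lay nearest to Pou2f3, a POU factor of suprabasal cells (distance 0.060; Pou2f3 at 118 ± 12.03 and 56.6 ± 7.31 CPM, SD, n = 3), and Klf4 nearest to Klf5 (0.056). Grhl1 lay nearest to Ahr, the aryl hydrocarbon receptor (0.063), and Ovol1 to Tfap2a, an AP-2 factor (0.070). Grhl3 lay nearest to Zfp750 (0.12), Hopx to Ets1 (0.13) and Cebpb to Klf10 (0.17). Of these, Pou2f3 and Ahr were called lower and Tfap2a, Ets1 and Klf10 higher, while Klf5 and Zfp750 were not called (edgeR adjusted p = 0.560 and 0.127). The distance takes in the step between the groups, so a nearest gene tends to share its factor's change by selection. These calls are hence no separate result. Zfp750 was called higher without control replicate 3 (0.49, edgeR adjusted p = 0.0427).

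Genes of the upper layers, on which these factors act, were also called in both directions, as were all tested genes (22.8% higher and 23.3% lower). Of 15 spinous layer genes 1 was higher, 7 lower and 7 not called (median log2 fold change −0.37). Krt10, the keratin of the spinous layer, fell from 5914 ± 1143 to 1019 ± 286 CPM (SD, n = 3) and Ptgs1 by a log2 fold change of −0.96 ± 0.09 (SE). Dsg1a, a desmosomal cadherin gene, fell, with a log2 fold change of −1.36 ± 0.14, whereas its near copy Dsg1b rose by 0.98 ± 0.15 (SE). Reads that fit both copies were not counted, so the levels of this pair are uncertain.

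Of 22 granular and cornified layer genes 9 were higher, 6 lower and 7 not called (median −0.05). Rptn rose from 156 ± 38.9 to 926 ± 69.9 CPM, the protease gene Klk7 from 711 ± 84.9 to 2192 ± 201 CPM and the profilaggrin gene Flg from 177 ± 33.6 to 551 ± 91.9 CPM (SD, n = 3). Flg2, of the same family as Flg, fell from 2632 ± 357 to 335 ± 68.6 CPM (SD, n = 3). Of 16 genes of epidermal stress 15 were higher and 1 lower (median 4.23). Krt16 rose from 90.9 ± 23.0 to 4856 ± 685 CPM (SD, n = 3), Sprr2h by 4.59 ± 0.15 and Krt6a by 5.70 ± 0.23 on the log2 scale (SE), the last uncertain because of its near copy Krt6b, and Il1f6 fell by 1.26 on that scale. None of the 9 factors changed by as much as the median of that list.

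**Figure D4:**
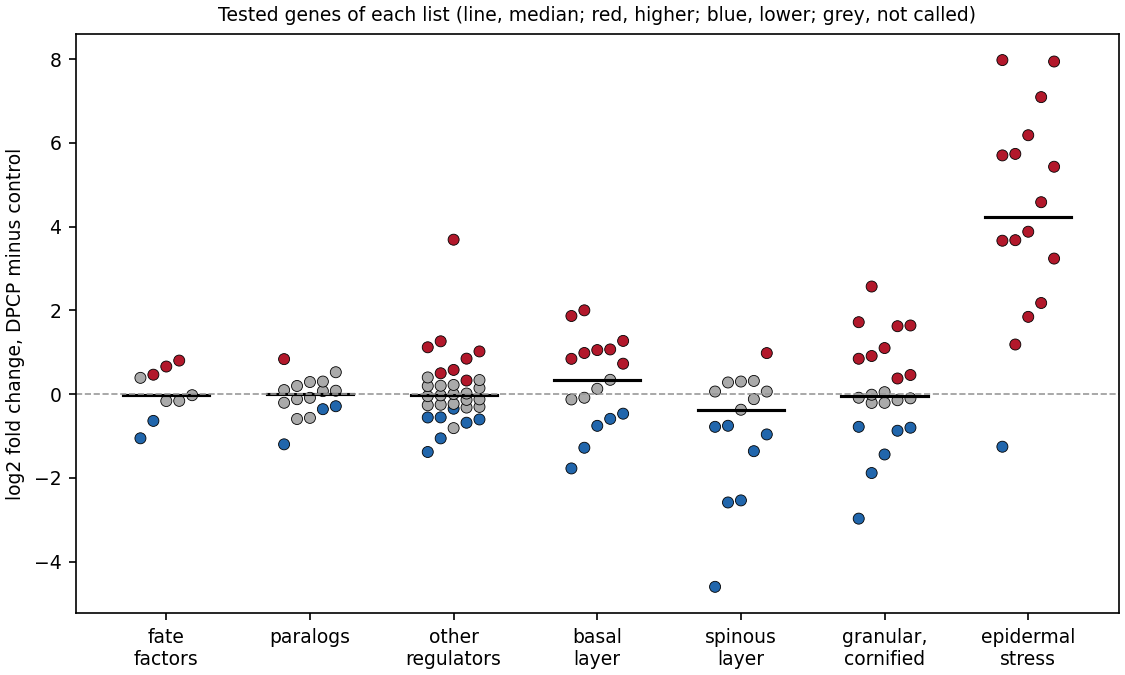
Log2 fold change of DPCP minus control (y axis) of each tested gene in 7 lists; lines are medians, red is called higher, blue called lower and grey not called. The 9 fate factors lie between −1.05 and 0.80, while the stress genes have a median of 4.23 and the spinous genes of −0.37.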

How the data were processed

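Whole-skin poly(A) RNA was sequenced in 6 libraries. The authors deposited unnormalized counts for each gene. The file headers give featureCounts 1.6.2 and Ensembl's release 102 gene models for GRCm38. The deposited gene length, in bases, served for levels per length. Trimmomatic 0.36, HISAT2 2.2.1, StringTie 2.2.1 and mm10 are named in the submitters' processing notes, as is DESeq2 1.34.0. The command in the header sets no option for strand or read pairs, so mates were counted singly on either strand, and by that program's defaults reads over several genes or places were left out. Symbols came from GENCODE M21 (55141 of 55487 identifiers matched).

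Counts were tested with edgeR 4.0.16 (quasi-likelihood F-test, TMM factors of 0.942 to 1.04, filterByExpr) in R 4.3.3, over all 6 libraries. Each SE was taken as the log2 fold change over the root of F. CPM uses effective library sizes. Ratios took 0.5 counts as pseudocount, likeness 0.5 CPM, with exact permutation tests in scipy 1.17.1. The procedure was tested on simulated counts, where it recovered small fold changes less often than large ones and made false calls above the nominal rate. Libraries of a group correlated at 0.985 to 0.987 (log2 CPM), and none were copies.

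The factors and lists were chosen with earlier results of these data known. Named genes are the 9 factors, tested paralogs, the nearest profiles, and per layer, stress or regulator list the 3 called genes with the smallest p in the main direction and 1 in the other. Other genes are named as markers. Some results that the rule selects are not reported here. The results were recomputed with upper-quartile or RLE factors, library totals, 2 other filters, DESeq2 1.42.0, a replicate block and each library left out.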

Additional observations from a re-analysis of the deposited data

How the results depend on the processing

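Counts of called genes stayed within 1.5 times under every alternative run (3492 to 4361 higher against 4163), and the factors called numbered 3 or 4 higher and 2 lower in each. Cebpb, Hopx, Ovol1, Gata3 and Grhl1 kept direction and call in all 13 alternatives. Without control replicate 3 their log2 fold changes were 0.87, 0.73, 0.56, −0.97 and −0.60, in that order. Those of Trp63 and Barx2 were then −0.08 and −0.12. Of 117 values for the 9 factors, 110 kept direction and side of the threshold, 5 passed it (all Grhl3) and 2 turned sign (Klf4, 0.075 without control replicate 3 and 0.0034 without DPCP replicate 2, neither called, over a leave-one-out range of −0.088 to 0.075). Of 545 values for 42 other named genes, 508 were kept, 11 lost the call, 21 gained it and 5 turned sign without a call: Klf2 (0.10 without control replicate 2, 0.06 without DPCP replicate 3, range −0.24 to 0.10) and Cebpe (−0.014 with library totals alone, −0.28 without control replicate 3, −0.17 without DPCP replicate 2, range −0.28 to 0.30). The cause was not tested. With library totals alone 42.0% of called genes were higher, against 49.5%, and the median log2 fold change of all genes shifted by −0.07.

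Same-numbered libraries deviated together only weakly (r = 0.046, 0.027 and 0.11 across genes), so the numbers were not taken as pairs. With the replicate number as a block 4260 genes were higher and 4241 lower, and 6 of 51 named genes gained a call, among them Grhl3 (0.40, edgeR adjusted p = 0.0121), Trp53 (0.30, 0.0462), Trp73 (0.55, 0.0172), Gata6 (−0.59, 0.0221) and Zfp750 (0.34, 0.0133). All 7 ratios kept their direction under each alternative. Each of the 9 factors had 1675 or more counts in every library, whereas Ovol2 had 51 to 107 and Cebpe 14 to 44, which limits their precision. Cebpe gave no value with the filter of 1 CPM.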

Other observations

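Markers of other skin tissues were read from the same fit, with the 9 factors in mind because Klf4, Cebpb, Gata3 and Barx2 are also made outside the epidermis. Of 6 endothelial markers 4 were higher, 1 lower and 1 not called, with sums of 219 to 258 CPM in control and 362 to 425 CPM in DPCP libraries. Of 7 fibroblast markers 2 were higher and 5 not called (4787 to 6786 and 6386 to 7736 CPM). Of 7 adipocyte markers 1 was higher, 2 lower and 4 not called (835 to 1092 and 937 to 1114 CPM). Of 7 sebaceous gland markers 4 were lower and 3 not called (4185 to 6045 and 2661 to 3668 CPM). The part of these tissues in the levels of the 9 factors was not tested.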
